A study of Mus musculus with 2 samples.

Results

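The Alpl locus was examined in CG methylation data from whole genome bisulfite sequencing (WGBS) of primary osteoblasts. Alpl (ENSMUSG00000028766) lies on chromosome 4 of the mouse genome GRCm38 from 137741733 to 137796384 on the minus strand, and the locus was taken as the gene with 60 kb on each side, from 137681733 to 137856384. It covers 873 of the 13627618 bins of 200 bp into which the nuclear chromosomes were divided. Of these, 770 hold a CG, 752 had calls in both libraries and 384 had at least 10 calls in each library, with 4 or more CG cytosines. WT cells came from wild type C57BL/6 mice, and TCKO cells from C57BL/6 mice carrying Prx1-Cre with Tet1fl/fl, Tet2fl/fl and Tet3fl/fl, so that all 3 Tet genes are deleted where Cre has been active. Both sets of cells were isolated from 3-day-old mice and cultured for 3 days, and each genotype is represented by 1 library. Prx1-Cre is active in limb bud mesenchyme and in part of the skull mesenchyme, and cells it has not reached keep their Tet genes. The number of mice behind each library is not given in the sources used here, and the labels give no separate cultures or animals.

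Alpl encodes tissue-nonspecific alkaline phosphatase, an enzyme on the surface of osteoblasts that cleaves inorganic pyrophosphate, an inhibitor of mineral growth, and so releases phosphate for mineral. Its activity is the usual early marker of osteoblast differentiation, and its loss causes hypophosphatasia, with poorly mineralized bone. The gene has 2 alternative promoters, each with its own noncoding first exon spliced to a shared exon 2. TET enzymes oxidize 5-methylcytosine (5mC) to 5-hydroxymethylcytosine (5hmC) and further, which leads to demethylation. Bisulfite sequencing reads 5mC and 5hmC alike as methylated.

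The upstream promoter, called start 1 here, lies at 137796384 (transcript Alpl-201), and the downstream promoter, start 2, lies at 137766475 (Alpl-205), 29909 bp further along within intron 1. Both transcripts use the start codon from 137758630 to 137758632 in exon 2, as do Alpl-202 and Alpl-208, which also start within intron 1. Start 2 was taken from the annotation, and no expression data were used to choose it. The sequences just upstream of the 2 start sites are printed because they differ in what methylation can act on. Each is 250 bases of the minus strand of GRCm38, read 5′ to 3′ and ending at the base before the start site, from chr4:137796385-137796634 and chr4:137766476-137766725, with every CG in capitals.
Start 1: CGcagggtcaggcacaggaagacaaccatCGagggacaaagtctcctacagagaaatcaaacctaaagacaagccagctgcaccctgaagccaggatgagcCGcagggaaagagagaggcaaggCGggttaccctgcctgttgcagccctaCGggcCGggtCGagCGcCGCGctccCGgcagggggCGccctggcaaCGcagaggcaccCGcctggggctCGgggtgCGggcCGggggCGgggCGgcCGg
Start 2: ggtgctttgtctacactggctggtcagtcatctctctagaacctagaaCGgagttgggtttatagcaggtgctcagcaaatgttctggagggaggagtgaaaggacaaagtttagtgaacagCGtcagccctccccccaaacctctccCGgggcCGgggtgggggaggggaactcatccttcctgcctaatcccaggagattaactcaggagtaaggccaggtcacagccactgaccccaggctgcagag
The sequence of start 1 holds 20 CGs and that of start 2 holds 4. Within 500 bp of each start site, the GC content was 65.3% at start 1 and 56.2% at start 2, and the ratio of observed to expected CGs was 0.688 and 0.177.

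The WT library held 261062118 calls on the nuclear chromosomes (5.97 per CG cytosine) and the TCKO library 223581206 (5.11), of which 70.2% and 76.3% were methylated. A call is 1 reading of 1 cytosine by 1 read. At the locus the depth was lower, where 5222 CG cytosines received 17431 WT calls and 14548 TCKO calls (3.34 and 2.79 per cytosine). Over the whole genome TCKO had 0.856 times the calls of WT, and over the whole Tet1, Tet2 and Tet3 genes 0.791, 0.784 and 0.819 times. Among exons with at least 50 WT calls the ratio ran from 0.0161 to 1.04 in Tet1 (18 exons, some overlapping), from 0.278 to 1.64 in Tet2 (15) and from 0.306 to 0.944 in Tet3 (6). The lowest exons had 62 WT calls and 1 TCKO call in Tet1, 180 and 50 in Tet2, and 85 and 26 in Tet3, chosen for their low ratio and given without a test. Expression was not measured in these libraries, so the osteoblast identity of the cells was not checked against markers. Every difference below compares 2 libraries, without a replicate check on the genotypes, and its interval and p-value reflect only counting error. Calls of 1 read at neighbouring CGs are not independent, so the true intervals are wider.

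Start 1 was almost unmethylated in both libraries where it was read, and the CGs nearest to it had no calls. From 250 bp upstream to 500 bp downstream of it, 2 of 103 calls were methylated in WT (1.94%, 95% Wilson interval 0.534 to 6.81) and 5 of 108 in TCKO (4.63%, 1.99 to 10.4), a difference of 2.69 points (95% Newcombe interval -2.84 to 8.61). The unmethylated stretch had sharp edges on both sides. Upstream of it, from 500 to 250 bp before the start site, WT had 57.8% (37 of 64 calls) and TCKO 66.0% (33 of 50). Downstream, from 500 to 1000 bp, WT had 24.1% (13 of 54) and TCKO 20% (8 of 40), and in the next 500 bp the level was 91.9% in WT and 95.1% in TCKO.

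Within 500 bp on either side, start 1 had 39 methylated of 167 calls in WT (23.4%, 17.6 to 30.3) and 38 of 158 in TCKO (24.1%, 18.1 to 31.3). The difference was 0.70 points (-8.50 to 9.95). Most of these methylated calls came from 2 CGs, at positions -285 and -311 bp from the start site. Together these 2 CGs gave 34 methylated of 43 calls in WT and 26 of 29 in TCKO. The other CGs within 500 bp gave 5 of 124 and 12 of 129. Of all 73 CGs, 54 were covered in WT, 60 in TCKO and 51 in both, and 6 had a methylated call in each library. The CG-dense core was read thinly, and no CG from position 62 to position -11 bp had a call in either library. Over the first 250 bp of the transcript 0 of 18 calls were methylated in WT (95% Wilson upper bound 17.6%) and 0 of 22 in TCKO (upper bound 14.9%). No CG there had more than 1 call in WT or 2 in TCKO, so these calls may come from very few reads. The bounds treat them as independent, and a gain there could not be judged at this depth.

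**Figure D1:**
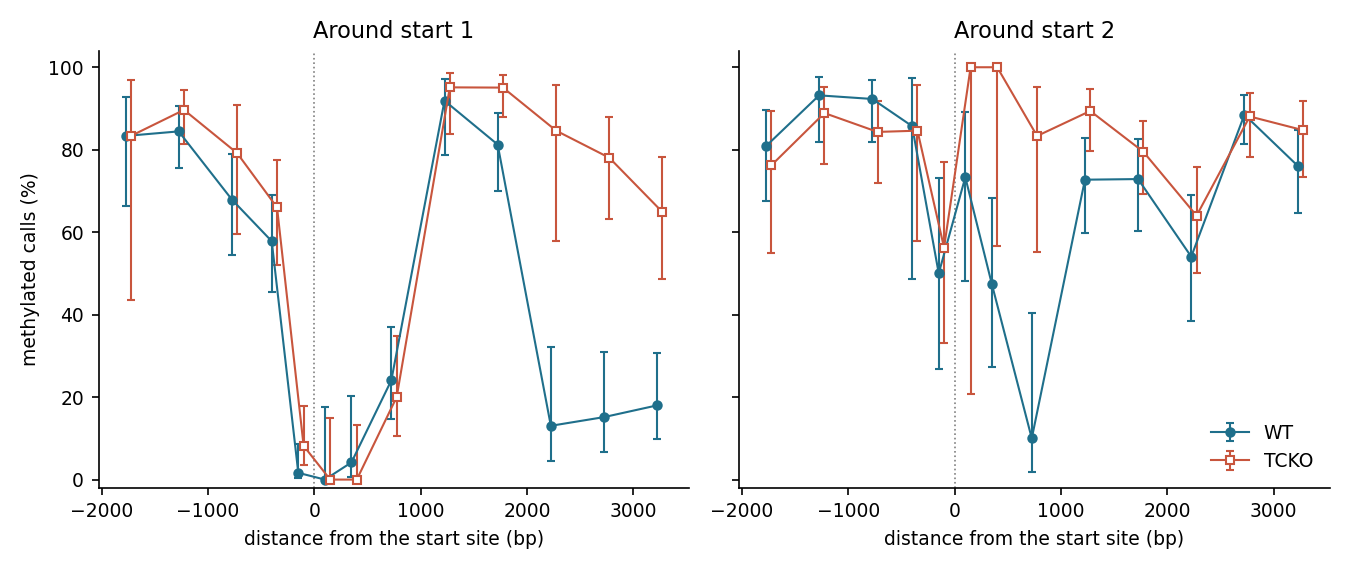
Methylated calls (%) in windows of 250 or 500 bp around start 1 (left) and start 2 (right), against the distance from the start site in bp, with negative values upstream. Filled circles are WT and open squares TCKO, 1 library each, with 95% Wilson intervals as bars. Both libraries drop to near 0 around start 1, where the nearest CGs had no calls. The libraries separate from 2000 bp into intron 1, where WT is at 13.0% to 18.0% and TCKO at 64.9% to 84.6%.

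Start 2 was methylated in part in both libraries. Within 500 bp it had 33 methylated of 55 calls in WT (60%, 46.8 to 71.9) and 26 of 35 in TCKO (74.3%, 57.9 to 85.8), a difference of 14.3 points (-5.93 to 31.8). In the 250 bp upstream, whose sequence is printed above, WT had 7 of 14 calls methylated (50%) and TCKO 9 of 16 (56.2%). Downstream, from 500 to 1000 bp, WT had 1 of 10 calls methylated (95% interval 1.79 to 40.4) and TCKO 10 of 12 (83.3%, 55.2 to 95.3), and these intervals did not overlap. The bin from 137765801 to 137766000, in intron 1 just past the first exon of start 2, carried this difference, with 1 of 13 calls methylated in WT and 9 of 10 in TCKO. At that bin the deepest cytosine had 2 calls in WT and 1 in TCKO, so its calls may come from very few reads. The intervals above treat such calls as independent.

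GENCODE M21 gives Alpl 6 start sites more than 500 bp apart. Only the one of Alpl-208, at 137782191, reached the depth set for a test (a mean of 4 calls per cytosine in each library), with 85.5% in WT and 81.8% in TCKO. Among the 16388 testable start sites of protein-coding genes, compared by a 2-sided Fisher exact test and adjusted after Benjamini and Hochberg, it did not pass (adjusted p = 0.634). Of the 16388, 17.7% were higher in TCKO and passed. With the depth rule replaced by at least 20 calls in each library, a change made after the data were seen, all 6 could be tested among 51503 start sites, of which 12.2% were higher in TCKO and passed. None of the 6 passed this Fisher exact test. The adjusted p was 1 for start 1 and 0.485 for start 2. The closest was the start site of Alpl-207 at 137769820, with 21 of 43 calls methylated in WT (48.8%) and 31 of 41 in TCKO (75.6%), a difference of 26.8 points (6.01 to 44.5), at an unadjusted p of 0.0142, the only one under 0.05, and an adjusted p of 0.0893. The other 3 start sites had levels between 76.1% and 85.5% in the 2 libraries.

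**Figure D2:**
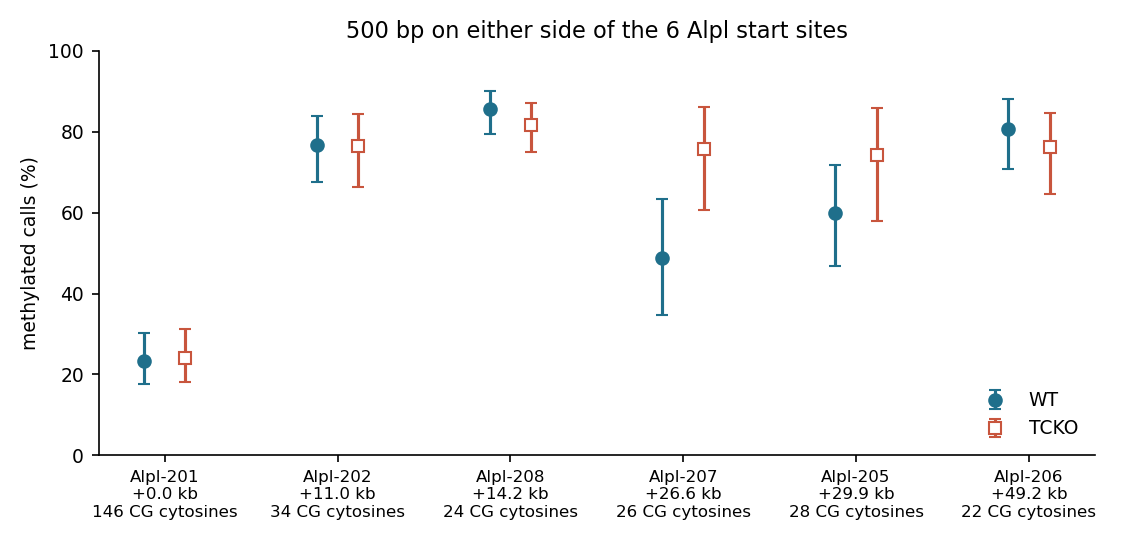
Methylated calls (%) within 500 bp of the 6 annotated Alpl start sites, ordered along the gene, with the transcript, its distance from start 1 and the number of CG cytosines under each. Circles are WT and open squares TCKO with 95% Wilson intervals. Start 1 (Alpl-201) is the lowest in both libraries at 23.4% and 24.1%, and the widest gap is at Alpl-207, with 48.8% and 75.6%.

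Across the gene body methylation was higher in TCKO, by about as much as in many other genes. From 137741733 to 137796384, WT had 4005 of 5497 calls methylated (72.9%, 71.7 to 74.0) and TCKO 3986 of 4864 (81.9%, 80.8 to 83.0), a difference of 9.09 points (7.49 to 10.7). Among 19742 protein-coding genes with at least 200 calls in each library the median difference was 5.83 points, with quartiles of 2.66 and 8.48, and Alpl lay at percentile 79.5. Its WT level lay at percentile 64.0. The 2 strands of the Alpl body did not give the same difference. It was 13.3 points on plus-strand cytosines and 5.12 points on minus-strand cytosines, a gap of 8.20 points, where the median gap over 8684 gene bodies with at least 1000 calls per strand in each library was 1.63 points and 1.97% had a gap as wide. Over the genome the strands differed little (5.94 and 6.198 points).

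Within the gene, intron 1, which spans both promoters, had 73.2% in WT and 81.7% in TCKO, a difference of 8.53 points (6.66 to 10.4). It was 12.8 points on plus-strand cytosines and 4.22 points on minus-strand cytosines. Between the 2 promoters, more than 500 bp from either start site, the difference was 9.86 points (7.67 to 12.04), and from 500 bp past start 2 to exon 2 it was 4.93 points (1.40 to 8.44). The widest intron difference was in intron 6, which had 87 of 186 calls methylated in WT (46.8%) and 115 of 148 in TCKO (77.7%), a difference of 30.9 points (20.7 to 40.1). This intron was read thinly, at 1.84 calls per cytosine in WT and 1.47 in TCKO. Intron 7 followed, with 70 of 115 calls (60.9%) and 53 of 64 (82.8%). Intron 8 did not show it, at 82.2% and 82.0%. Exons 2 to 12, which hold the coding sequence, had 80.1% in WT and 86.6% in TCKO when pooled (281 and 276 calls), a difference of 6.52 points (0.31 to 12.7). Single exons had 3 to 87 calls in a library and are not compared.

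The upstream flank had no annotated gene in GENCODE M21. It had 66.6% in WT and 71.8% in TCKO, a difference of 5.21 points (3.49 to 6.91). The first 10 kb upstream of start 1 stood at 64.7% in WT and 64.8% in TCKO, a difference of 0.07 points (-4.64 to 4.74). From there the difference was 9.97 points at 10 to 20 kb (5.82 to 14.1), 7.39 points at 20 to 30 kb, 6.91 points at 30 to 40 kb, 5.32 points at 40 to 50 kb and 2.17 points at 50 to 60 kb (-2.32 to 6.42). The interval for the first 10 kb and that for 10 to 20 kb did not overlap. The downstream flank had 65.5% in WT and 73.6% in TCKO, a difference of 8.13 points (6.36 to 9.89).

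**Figure D3:**
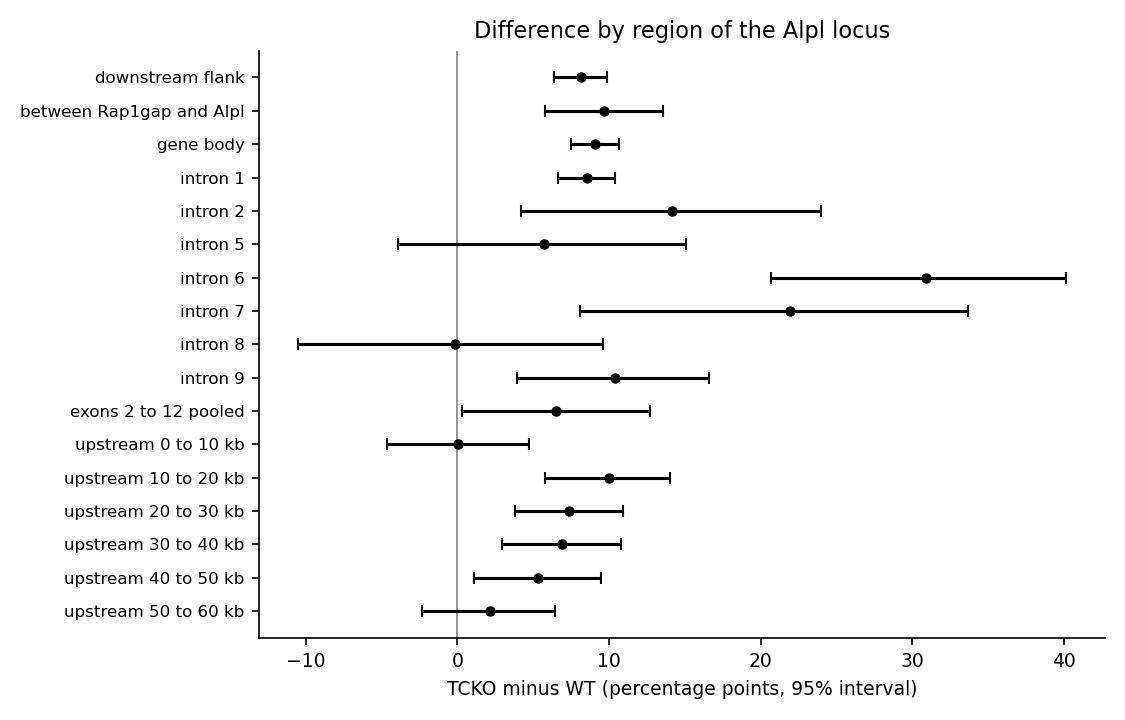
Difference in methylated calls, TCKO minus WT in percentage points, for regions of the locus, with 95% Newcombe intervals as bars. Introns 3, 4, 10 and 11, with fewer than 30 calls in TCKO, are left out. Intron 6 stands at 30.9 points, and the first 10 kb upstream of start 1 and intron 8 stand within 0.2 points of 0.

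The downstream flank holds Rap1gap, which encodes a GTPase-activating protein for RAP1, and its antisense transcript Rap1gapos. The part of Rap1gap inside the locus had 64.5% in WT and 72.2% in TCKO, and Rap1gapos 75.04% and 81.6%. Of the 6 Rap1gap start sites whose 500 bp sides lie inside the locus, the one at 137707522 was low in both libraries, with 6 of 112 calls methylated in WT (5.36%) and 5 of 36 in TCKO (13.9%). The one at 137687418 had 57.9% in WT (126 calls) and 78.3% in TCKO (138 calls). The others had levels from 5.56% to 71.2% in WT and from 21.2% to 60.9% in TCKO.

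Of the 873 bins of the locus, 123 were testable, meaning that they held 4 or more CG cytosines, read on average 4 or more times in both libraries. A bin was called when the 2-sided Fisher exact test gave an adjusted p below 0.05 over all 2534629 testable bins of the genome and the level differed by more than 40 points. In the locus 2 bins were called higher in TCKO (1.63%), against 2.86% of all testable bins, and none was called lower, against 0.0349%. Without adjustment, at a p below 0.05, 4 bins were higher by more than 40 points and none was lower, against 3.04% and 0.0471% of all testable bins. Both called bins lay in intron 1, between the 2 promoters, and each is printed below from the minus strand of GRCm38 with its CGs in capitals, from chr4:137779801-137780000 and chr4:137778401-137778600.
Bin 16.5 kb past start 1: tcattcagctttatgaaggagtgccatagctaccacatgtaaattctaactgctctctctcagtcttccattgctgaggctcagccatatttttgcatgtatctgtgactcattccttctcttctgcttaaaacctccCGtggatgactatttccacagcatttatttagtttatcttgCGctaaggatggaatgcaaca
Bin 17.9 kb past start 1: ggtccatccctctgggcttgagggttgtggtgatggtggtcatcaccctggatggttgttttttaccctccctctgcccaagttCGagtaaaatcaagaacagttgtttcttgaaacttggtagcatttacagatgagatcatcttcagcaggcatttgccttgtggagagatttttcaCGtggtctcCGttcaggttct
Both are CG-poor, with 2 and 3 CGs in 200 bases and a GC content of 41.0% and 47.0%.

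The bin at 137779801 had 1 of 29 calls methylated in WT (3.45%, 0.611 to 17.2) and 18 of 18 in TCKO (100%, 82.4 to 100), with an adjusted p of 9.8e-10 by the Fisher exact test. It rests on 2 CGs. On the plus strand of the CG at 137779820, 0 of 12 calls were methylated in WT and 7 of 7 in TCKO, and on that of the CG at 137779861, 1 of 12 and 9 of 9. The minus strand differed in the same way at both CGs but had at most 3 calls in WT and 1 in TCKO at each. The bin at 137778401 had 9 of 58 calls methylated in WT (15.5%) and 27 of 42 in TCKO (64.3%), a difference of 48.8 points (29.8 to 63.4), with an adjusted p of 4.4e-05 by the same test. The bin beside it, at 137778201, had 54 of 95 (56.8%) and 92 of 102 (90.2%), and its adjusted p was 7.3e-06 with a difference of 33.4 points, below the 40 required. When only the deepest cytosine of each strand was used in each bin, an alternative chosen after the data were seen so that a read counts about once, the bin at 137779801 was still called (1 of 15 against 10 of 10, Fisher exact test, adjusted p = 0.000866). The bin at 137778401 was then no longer called (8 of 24 against 14 of 19, Fisher exact test, adjusted p = 0.293), and the one at 137778201 was (4 of 22 against 22 of 25, Fisher exact test, adjusted p = 0.000473).

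Of the other testable bins of the locus, the largest gains were at 137839401, 43.1 kb upstream, with 7 of 21 calls methylated in WT and 14 of 17 in TCKO (Fisher exact test, adjusted p = 0.0517), at 137764801 in intron 1 with 6 of 17 and 17 of 22 (adjusted p = 0.117), and at 137824601, 28.3 kb upstream, with 26 of 53 and 63 of 72 (adjusted p = 0.000173, a difference of 38.4 points). The bin at 137824601 thus missed the required difference and the others the adjusted p. The 3 largest losses were smaller. They were 18.4 points at 137824001 (52 of 59 against 23 of 33), 15.5 points at 137843601 (38 of 66 against 24 of 57) and 13.3 points at 137734201 (99 of 107 against 61 of 77), and none passed the Fisher exact test after adjustment. Over the 123 bins, 79 were higher in TCKO (64.2%) with a median difference of 3.21 points, against 68.1% and 4.71 points over all testable bins.

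The depth rule left out most of the CG-dense bins of the locus. With at least 10 calls in each library in its place, chosen after the data were seen, 384 bins could be tested, 13 were called higher in TCKO (3.39%, against 2.84% of the 4142954 bins of the genome) and 1 was called lower, against 0.0476%. Of the 13 bins, 7 lay in intron 1, 4 in the upstream flank and 2 in the downstream flank. In intron 1 they were the 2 bins above, a pair at 137793601 and 137793801, a pair at 137762801 and 137763001, and the bin past start 2 at 137765801. The deepest TCKO cytosine had 1 call in the bin at 137765801 and 2 in the one at 137763001. The bin at 137793801 had 2 of 33 calls methylated in WT (6.06%) and 16 of 19 in TCKO (84.2%), with an adjusted p of 1.7e-06 by the Fisher exact test. It is printed because it had the lowest adjusted p among the bins added by this rule, from the minus strand of chr4:137793801-137794000 with its 5 CGs in capitals.
Bin 2.5 kb past start 1: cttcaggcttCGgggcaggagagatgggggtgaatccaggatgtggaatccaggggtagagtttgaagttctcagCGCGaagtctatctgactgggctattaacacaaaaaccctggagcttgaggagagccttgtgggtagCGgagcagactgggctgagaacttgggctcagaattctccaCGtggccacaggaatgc
In the upstream flank the called bins were at 137816401, at 137831201 and a pair at 137837801 and 137838001. The pair, 41.6 kb upstream, had 16 of 50 calls methylated in WT (32.0%) and 51 of 66 in TCKO (77.3%). The bin called lower lay at 137847001, 50.7 kb upstream, with 35 of 37 calls methylated in WT (94.6%) and 4 of 12 in TCKO (33.3%). At that bin the deepest TCKO cytosine had 2 calls.

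**Figure D4:**
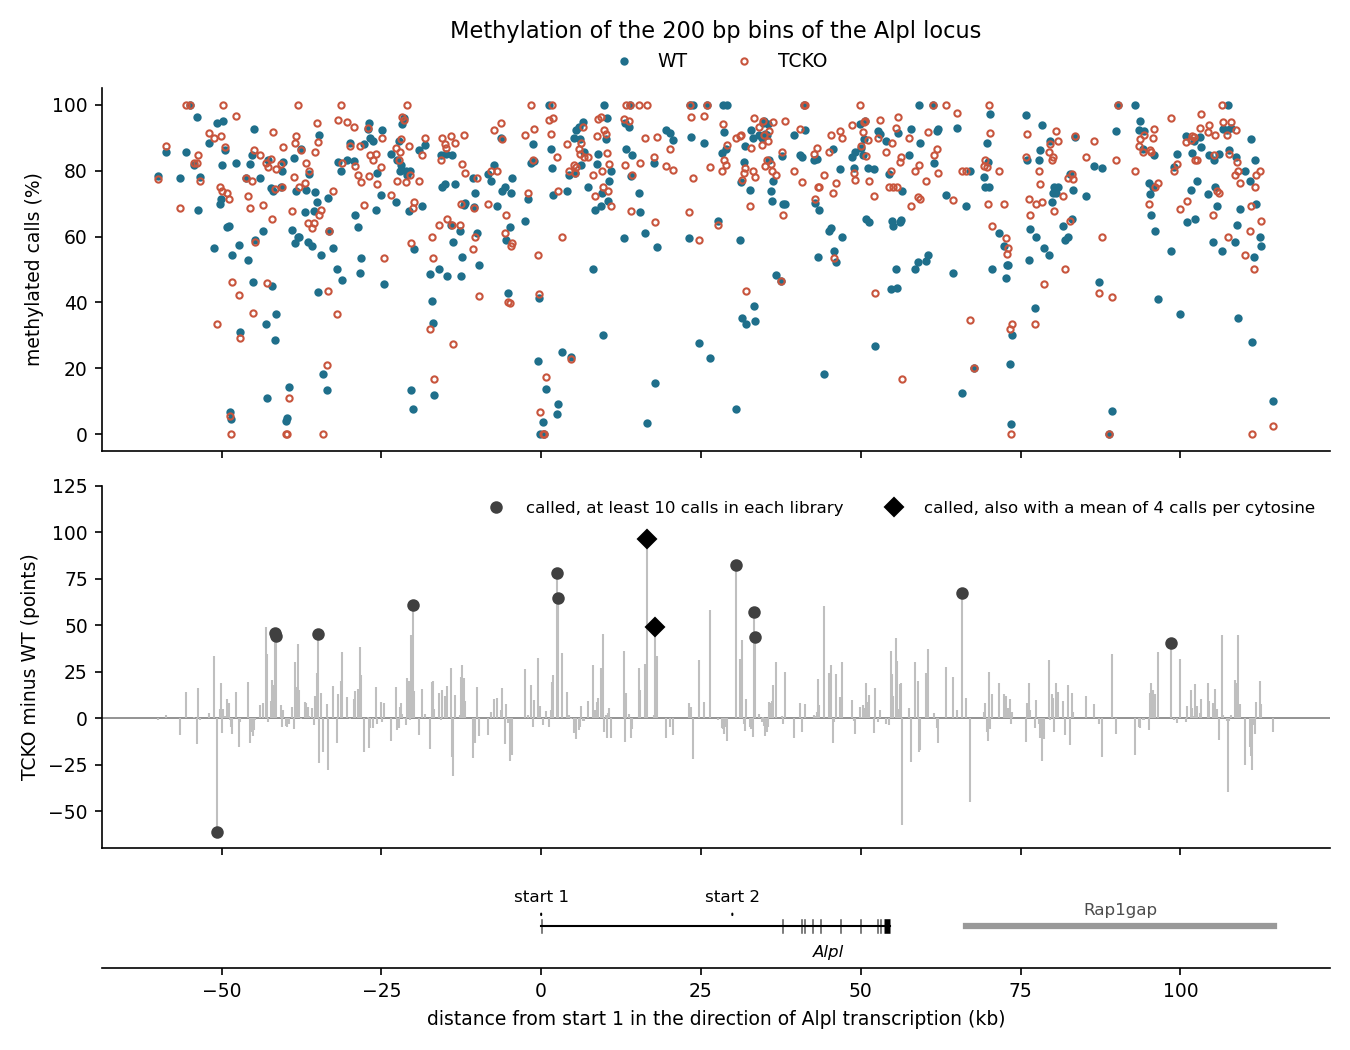
Top, methylated calls (%) of the 200 bp bins with at least 10 calls in each library, WT as filled and TCKO as open circles, against the distance from start 1 in kb along the direction of transcription. Middle, TCKO minus WT in points as bars for the same bins, with the called bins of at least 4 CG cytosines marked (13 higher and 1 lower with at least 10 calls, 2 of them also under the rule of a mean of 4 calls per cytosine). Bottom, the exons of Alpl in black and Rap1gap in grey. The tallest called bar, 96.6 points, stands 16.5 kb past start 1.

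Beyond single bins, adjacent bins with at least 5 calls in each library were joined where TCKO was more than 30 points higher, and runs with at least 20 calls in each library are described without a test, since the difference chose them. There were 17 such runs, 7 in the gene body, 6 upstream and 4 downstream by their midpoints. Against them stood 1 run, inside Rap1gap, where both bins were more than 30 points lower. Its sum was 13 of 25 calls methylated in WT and 9 of 32 in TCKO. No count of such runs over the genome is given, so whether 17 against 1 is usual for these libraries is not known. Under the different rule for called bins, 2.86% of all testable bins of the genome were called higher and 0.0349% lower. The longest of the 17 runs was 1000 bp in intron 1, from 137793001 to 137794000, centred 2.88 kb past start 1. Over its 5 bins it had 14 of 96 calls methylated in WT (14.6%, 8.89 to 23.0) and 59 of 81 in TCKO (72.8%, 62.3 to 81.3). Between this run and the unmethylated promoter lay about 1 kb in which the levels were 81.2% to 95.1%. A second place in intron 1, from 137769601 to 137770000, covers the start site of Alpl-207 and had 4 of 21 calls methylated in WT (19.05%) and 21 of 26 in TCKO (80.8%). A run in intron 6, from 137751801 to 137752200, had 6 of 50 (12%) and 17 of 22 (77.3%). In its bin at 137751801 the deepest TCKO cytosine had 1 call.

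Low methylation in WT marks the places where methylation could rise, so stretches were taken where adjacent bins had at least 10 calls and under 30% in WT. There were 42, of which 29 had at least 10 calls in TCKO. The WT level chose them, which by itself makes a higher TCKO level likely, and they are given as a description. In the gene body, 7 of 11 stretches were more than 40 points higher in TCKO and 2 stayed under 30%. In the upstream flank 2 of 10 were more than 40 points higher and 6 stayed under 30%, and in the downstream flank 1 of 8 and 6 of 8. Counted by bins with at least 10 calls in each library, 11 of 36 in the locus (30.6%) were more than 40 points higher, against 28.2% of the 442037 such bins of the genome. Inside the gene and beyond 1 kb of each of its start sites it was 5 of 9 bins (55.6%), against 40.8% of such bins in protein-coding gene bodies. In the upstream flank beyond 1 kb of start 1 it was 3 of 12 bins (25%). Of such bins outside protein-coding genes and beyond 1 kb of a start site, 29.9% were. The downstream flank, with 1 of 8 bins, includes start sites of Rap1gap and has no matching share. Within 1 kb of start sites 5.69% of the low bins of the genome were more than 40 points higher. In the converse choice, of 21 bins of the locus under 30% in TCKO, 1 was more than 40 points higher in WT and 18 were also under 30% in WT. Over the genome these were 6242 (2.37%) and 204128 of 263791 such bins.

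The 3 longest stretches were 600 bp each. The one from 137795601 to 137796200, at the start of intron 1 over the first exon of Alpl-204, had 4 of 70 calls methylated in WT (5.71%) and 4 of 65 in TCKO (6.15%). The one from 137835801 to 137836400, 39.7 kb upstream, had 15 of 136 (11.03%) and 9 of 131 (6.87%). The one from 137695601 to 137696200, inside Rap1gap, had 7 of 44 (15.9%) and 3 of 12 (25%). None of the 3 longest stretches was thus more than 10 points higher in TCKO. The deepest bin of the upstream stretch is printed from the minus strand of chr4:137835801-137836000, CGs in capitals, as an example that stayed low away from any annotated start site.
Bin 39.5 kb upstream: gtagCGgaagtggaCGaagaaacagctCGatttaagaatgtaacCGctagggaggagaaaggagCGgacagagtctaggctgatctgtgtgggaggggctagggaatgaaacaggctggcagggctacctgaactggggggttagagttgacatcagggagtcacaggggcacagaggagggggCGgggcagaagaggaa
It had 13 of 91 calls methylated in WT and 9 of 82 in TCKO. Other low stretches over promoters were the one from 137796401 to 137796600 upstream of start 1, with 2 of 30 calls methylated in TCKO and 0 of 33 in WT, and the one from 137765801 to 137766000 past start 2, given above. At the edge of the start 1 window, the stretch from 137796801 to 137797000 had 4 of 18 in WT and 6 of 11 in TCKO. At the Rap1gap start sites, the stretch from 137707401 to 137707800 had no methylated call among 82 in WT and 10 in TCKO (95% Wilson upper bounds 4.48% and 27.8%), and the one from 137707001 to 137707200 had 1 of 14 and 5 of 12. The stretch from 137681801 to 137682000, at the downstream edge of the locus, had 7 of 69 in WT and 1 of 38 in TCKO.

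**Figure D5:**
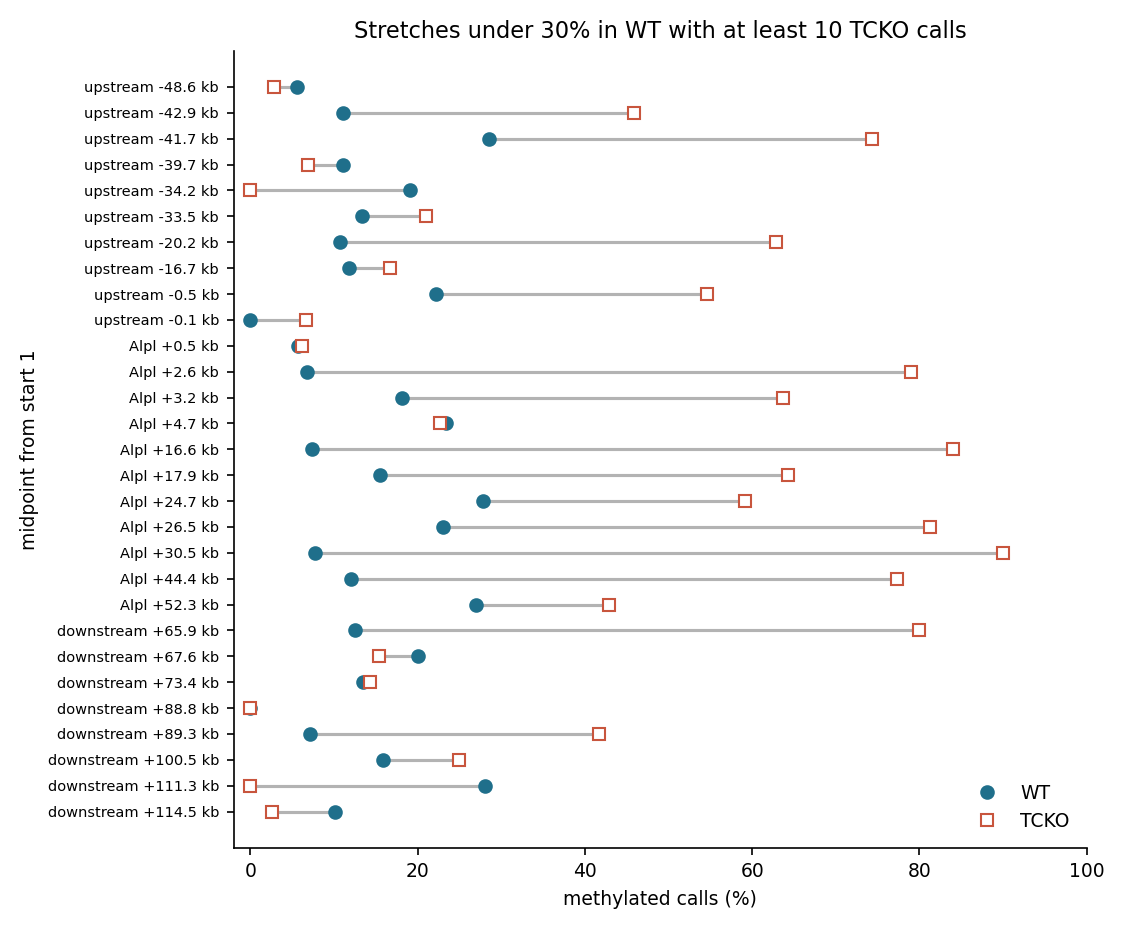
The 29 stretches under 30% in WT with at least 10 calls in TCKO, ordered by the distance of their midpoint from start 1 in kb, with methylated calls (%) in WT as filled circles and in TCKO as open squares joined by a line. Of the 11 stretches inside Alpl, 7 are more than 40 points higher in TCKO, and the 2 that stay under 30% are those at start 1 and 4.7 kb past it.

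Exact strings of 4 transcription factor families were counted on both strands of each bin, ACCACA for RUNX, TGACTCA for AP-1, CATTCC for TEAD and CAGCTG for E-box factors. RUNX2 is the transcription factor that directs osteoblast differentiation. The RUNX string was in 148 of the 873 bins of the locus (17.0%), against 13.7% of the 13237130 complete bins of the genome. Both called bins held it, and so did 7 of the 13 bins called with at least 10 calls in each library. Of these 2 and 13 bins, the AP-1 string was in 1 and 3, the TEAD string in 1 and 3, and the E-box string in 0 and 1. Among the bins low in WT with at least 10 calls in each library, 6 of the 11 that were more than 40 points higher in TCKO held the RUNX string, and 1 of the 18 that stayed under 30%. The TEAD string was in 4 of those 11 and 2 of those 18, the AP-1 string in 1 and 0, and the E-box string in 1 and 4. The shares over the genome were 10.8% for TEAD, 3.10% for AP-1 and 7.14% for the E-box. The shares of the strings among low bins of the genome were not counted. The 11 and the 18 bins were not matched for CG content. The 18 include the CG-dense bin upstream of start 1 at 137796401, with 30 CG cytosines. These counts are descriptions of the sequence, and binding was not measured here.

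The CTCF core motif was added after stretches low in both libraries had been seen, so low levels in its bins are partly fixed by that choice. The share of motif bins that are low over the genome was not counted. CTCF is a DNA-binding protein that separates chromatin domains. The motif was in 6 bins of the locus (0.687%), against 0.0932% of the bins of the genome. Of these 6 bins, 4 had under 10% methylated calls in WT, 3 downstream of the gene, on 6 to 32 calls, and 1 upstream of it. Of the 3 downstream bins, those at 137683201 and 137730201 had 4 calls each in TCKO. The upstream one is printed from the minus strand of chr4:137844801-137845000 with the match in capitals.
Bin 48.5 kb upstream: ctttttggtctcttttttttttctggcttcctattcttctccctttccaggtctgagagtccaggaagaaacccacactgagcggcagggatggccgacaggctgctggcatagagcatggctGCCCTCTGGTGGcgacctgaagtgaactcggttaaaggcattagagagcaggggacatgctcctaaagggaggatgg
Together with the next bin, from 137844801 to 137845200, it had 2 of 36 calls methylated in WT (5.56%) and 1 of 36 in TCKO (2.78%). The bin with the match at 137722868, inside Rap1gap, had 1 of 32 in WT and 0 of 27 in TCKO, with a 95% Wilson upper bound of 12.5%. The match inside Alpl, at 137744545 in intron 9, lay in a bin with 7 of 21 calls methylated in WT and 7 of 8 in TCKO.

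Other genes of mineralization were read with the same tests. The list held 19 genes, the 4 alkaline phosphatase genes, 7 genes of phosphate and pyrophosphate supply and 8 genes of the mineral-binding matrix and its regulators, and all were found in the annotation. In 4 genes at least 1 start site rose in the test over the 16388 testable start sites, namely Mgp, Spp1, Phex and Slc20a1, and in none did one fall. These were 4 of 10 testable start sites in 9 genes, where 17.7% of all testable start sites were higher and passed. Mgp, which encodes an inhibitor of calcification, had 6.44% at its start site in WT and 34.9% in TCKO (Fisher exact test, adjusted p = 5.4e-10). Spp1, which encodes the mineral-binding protein osteopontin, had 36.9% and 72.6% (Fisher exact test, adjusted p = 1.05e-06). Phex, an endopeptidase gene of phosphate balance, had 65.5% and 86.0% at a start site inside the gene (Fisher exact test, adjusted p = 0.0121), and Slc20a1, a phosphate transporter gene, had 65.7% and 91.2% at one of its start sites (adjusted p = 1.8e-08).

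With at least 20 calls in each library, 36 start sites in 18 of the 19 genes could be tested, and 10 of them in 7 genes rose, where 12.2% of all start sites did. Ibsp, which encodes bone sialoprotein, then had 29.2% in WT and 92.3% in TCKO (Fisher exact test, adjusted p = 2.9e-14). At 1 of its start sites Enpp6, a phosphodiesterase gene, had 0.877% and 65.9% (Fisher exact test, adjusted p = 5.6e-44), and Dmp1, a gene of osteocyte matrix, had 66.2% and 87.0% (adjusted p = 0.00965). The 6 Alpl start sites were not among them. Phospho1, a phosphatase gene that acts beside Alpl in matrix vesicles, had 0 of 66 calls methylated in WT (95% Wilson upper bound 5.50%) and 2 of 128 in TCKO (1.56%) at its first start site, and 24.04% and 19.5% at the other. Over gene bodies, 15 of the 19 genes were higher in TCKO, with a median difference of 9.18 points. Among 19742 protein-coding genes with at least 200 calls in each library, the median was 5.83 points. Their lower quartile was 2.66 points, so most of them were higher too. Bglap (52 WT and 47 TCKO calls) and Bglap2 (46 and 27) lie under that minimum of calls. Within 2 kb of the 19 genes 44 of 997 testable bins were called higher in TCKO in 11 genes, 2 of them in Alpl, and none was called lower, where 2.86% and 0.0349% of all testable bins were.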

How the data were processed

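WGBS libraries of WT and TCKO osteoblasts (1 each) were analysed, grouped by the genotype in their labels. The authors aligned reads to GRCm38 with BSMAP 2.74 (up to 2 mismatches) and used only unique alignments. Per CG position, the deposited files hold raw counts of methylated and of total calls. Removal of duplicate reads is not stated in the sources used here. All positions at the locus lay on CGs of the GRCm38 reference (100%). Levels were pooled methylated calls over all calls. Bins, start sites (500 bp on either side) and regions used GENCODE M21. Fisher exact tests were adjusted over all testable features of the nuclear chromosomes. Wilson and Newcombe intervals (95%) cover counting error only. The code was tested on simulated data. Python 3.11.15, numpy 2.4.6, scipy 1.17.1, pandas 2.3.3, numba 0.67.0 and matplotlib 3.10.9 were used.

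The members and lists were chosen with earlier results of these data known. Named were Alpl and the genes overlapping the locus, the called bins, the 5 testable bins with the largest gain and the 3 with the largest loss, the 3 longest low stretches and those over promoters, and of the mineralization list the genes whose start sites passed and at most 4 others. The alternatives changed the depth rule, the difference, the adjustment, the number of CG cytosines, the grid, the bin width, the start site window, the averaging, deep cytosines, the strand, and the choice of low stretches.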

Additional observations from a re-analysis of the deposited data

How the results depend on the processing

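With 1 library per genotype no library could be left out, and no paired analysis was possible because each group holds 1 sample. The count of bins called higher in TCKO, 2 in the report, was 11 with a mean of 1 call per cytosine, 13 with at least 10 calls per bin and 0 with a mean of 8 calls per cytosine, since the rule decides how many bins of this shallow locus can be tested. It was 5 with a difference above 20 points, 1 with one above 60 points, 4 without adjustment, 4 on a grid shifted by 100 bp and 1 with bins of 500 bp. The count called lower, 0 in the report, was 1 with a mean of 1 call per cytosine and with at least 10 calls per bin, and 0 under the other alternatives. At start 1 the difference of 0.70 points was 74.6 points on the plus strand, where TCKO had 5 calls, -6.24 points on the minus strand (130 WT and 153 TCKO calls), -2.84 points within 1000 bp, -0.27 points from 1000 bp before to 100 bp after the start site, and 11.9 points as a mean over cytosines with at least 4 calls in each library. No Alpl start site passed the test under the 6 alternatives in which 1, 2 or 6 of them could be tested, and on the plus strand none could be tested. The difference at start 2 lay between -4.11 and 28.6 points over its alternatives. The gene body difference of 9.09 points was 13.3 points on the plus strand and 5.12 points on the minus strand. The upstream flank gave 8.50 and 2.52 points on these strands, and the downstream flank 10.5 and 6.33 points, or 5.53 points as a mean over cytosines. The direction held for the gene body and both flanks, and the cause was not tested. The share of WT-low bins more than 40 points higher in TCKO, 30.6% in the report, was 14.3% (2 of 14 bins) with at least 20 calls, where the genome gave 26.8%, so the locus went from above to below the genome share. Chosen on the minus strand and read on the plus strand it was 100% of 1 bin (genome 23.4%), and the other way 25% of 4 bins (genome 23.3%). At a mean near 3 calls per cytosine, most single CGs are read too thinly to show a small difference. The CG-dense core of start 1 is read thinly or not at all.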
